A study of Mus musculus with 12 samples.

Results

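Variation of gene expression was described within a single group, 4 individual whole mouse embryos with neural tube defects (NTD embryos), which are 4 of the 12 samples of the series. They are all the samples labelled as individual NTD embryos. A probe of the expression BeadChip entered with a detection p-value under 0.05 on at least 2 of the 4 arrays, which kept 13330 of 32766 probes, and 10873 of these carried 1 gene name and gave 7158 genes. All samples were of the NOD strain, non-obese diabetic mice whose females can develop diabetes spontaneously, at embryonic day 10.5. The NTD embryos came from dams counted as diabetic above 250 mg/dL blood glucose, which had been given 5 units of gonadotropin to bring on estrus. They were set beside 4 diabetic pools, each of RNA from 4 embryos of separate diabetic pregnancies with the same treatment of the dams, and beside 4 control pools, each of RNA from 4 embryos of separate normal pregnancies. Whether control dams were given gonadotropin, which kind of defect each NTD embryo had, whether NTD embryos shared a litter and whether any embryo in the diabetic pools was defective are not stated in the labels. A pool averages over its 4 embryos, so pooling and the defect cannot be told apart in any comparison of spread. P-values here measure the spread between these samples.

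The neural tube forms when the neural plate folds and fuses along the back of the embryo, and failure of fusion leaves the brain or spinal cord open. At this age the brain is being divided into forebrain, midbrain and hindbrain by regional transcription factors, neurons are leaving the cell cycle, and the blood is filled with primitive red cells made in the yolk sac while the liver bud begins to form. In RNA from whole embryos, fewer cells of a type and less RNA per cell cannot be told apart.

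Between 12546 and 13393 probes were detected on the 4 NTD arrays, against 13248 to 13736 on the 8 arrays of pools, so that embryos 1, 3 and 4 lay below all pools; the part of this in the spread was not tested. The median number of beads per probe was 44 or 45, and the precision rests on 4 arrays per group. Markers of red cells, heart muscle and neurons, 3 to 6 of each on the array, were detected on all 4 NTD arrays. Fewer were for skeletal muscle (1 of 4 on the array), yolk sac (1 of 4), macrophages (2 of 3) and liver (2 of 3). The median SD of log2 intensity over genes was 0.160 among NTD embryos, 0.127 among diabetic pools and 0.101 among control pools. A gene was called widely spread where the highest of the 4 samples of a group was at least 2-fold over the lowest. This held for 223 of 7158 genes among NTD embryos (3.12%), for 33 among diabetic pools (0.461%) and for 9 among control pools (0.126%). Just inside this limit of 1 log2 unit lay Irx1 with a span of 1.004 and B3gat2 with 1.005. Just outside it lay Enah with 0.998 and Gpkow with 0.997. Of the 223 genes, 49 were undetected on at least 1 NTD array, and 199 still spanned 2-fold with undetected values raised to the lowest detected signal.

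As a measure over all genes, the difference between a sample and the average of its 3 group members was taken gene by gene and summarised as a root mean square. This distance came to 0.275 for NTD embryo 1, 0.212 for embryo 2, 0.229 for embryo 3 and 0.296 for embryo 4, in log2 units. It was 0.153, 0.216, 0.161 and 0.210 in diabetic pools 1 to 4 and 0.147, 0.135, 0.154 and 0.165 in control pools 1 to 4. The NTD embryos averaged 0.253 ± 0.039 and the diabetic pools 0.185 ± 0.032 (SD, n = 4 each), and the groups overlapped (two-sided exact permutation test, p = 0.0571). Control pools averaged 0.150 ± 0.013 (SD, n = 4), below every NTD embryo (exact permutation p = 0.0286, the smallest that 4 against 4 allows). Adjusted over these 2 comparisons both p-values were 0.0571, so neither difference passed 0.05. Distances within a group share samples and are not independent.

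**Figure D1:**
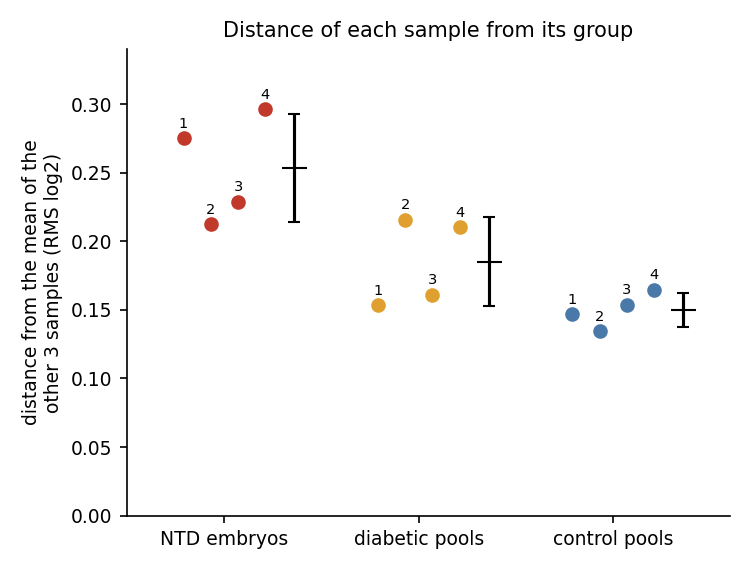
Distance between a sample and the average of its 3 group members (vertical axis, root mean square over 7158 genes, log2 units), with samples numbered within their group and the bar at the mean ± SD. NTD embryos lie at 0.212 to 0.296, diabetic pools at 0.153 to 0.216 and control pools at 0.135 to 0.165.

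Among the 4 embryos, embryo 4 contributed 33.7% of the summed squared deviation over genes, embryo 1 contributed 29.0%, and embryo 2 contributed least with 17.3%. Embryos 1 and 4 were the farthest apart, with 123 genes at least 2-fold apart. Embryos 1 and 3 were the nearest pair, with 33 such genes. Each of the 223 genes was put in a pattern by the largest gap between its 4 ordered values. In 178 of them 1 embryo stood alone, and this was embryo 4 for 85 genes, embryo 1 for 47, embryo 2 for 24 and embryo 3 for 22. Embryo 4 was thus the one apart in 38.1% of the widely spread genes, and in 22.2% of all genes tested. Without embryo 4, 79 genes spanned 2-fold over the other 3 embryos, against 138 without embryo 1, 178 without embryo 2 and 168 without embryo 3. Leaving out any embryo can only lower this count.

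**Figure D2:**
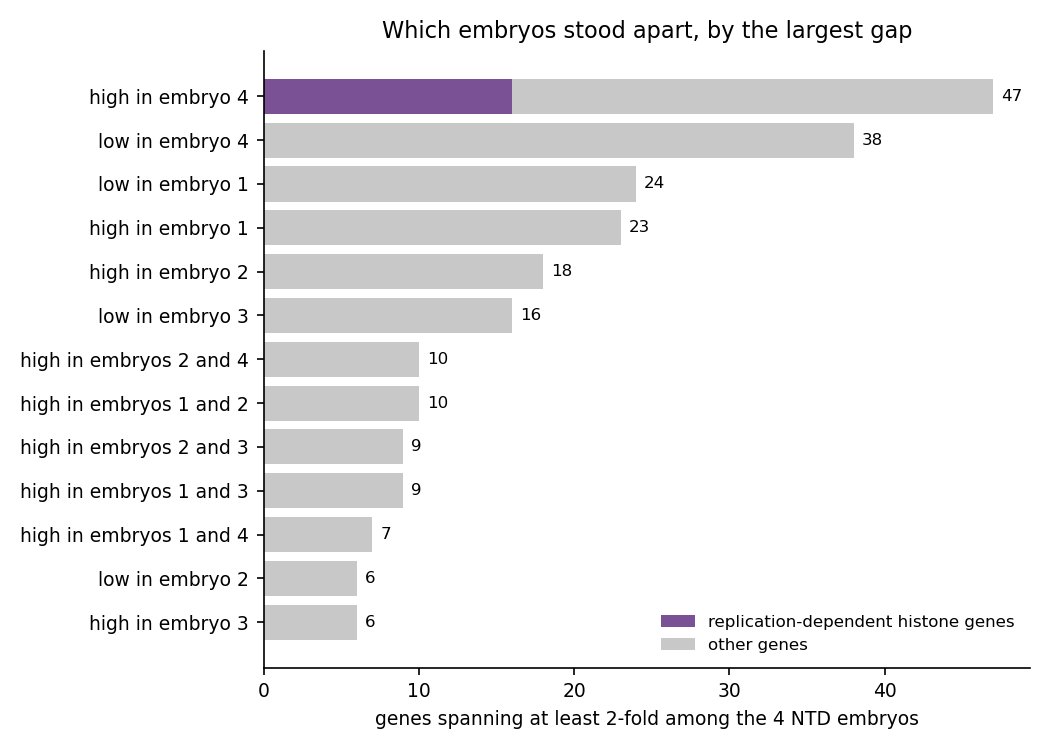
Number of genes (horizontal axis) by which NTD embryos stood apart (vertical axis), for the 223 genes spanning at least 2-fold among the 4 embryos, with replication-dependent histone genes in purple. The 2 longest bars, 47 and 38 genes, are those high and low in embryo 4, and all 16 histone genes lie in the first.

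The most variable genes encode a Y-linked demethylase, a forebrain transcription factor, inducible transcription factors and adult-type β-globins. Because the SD of log2 intensity falls with signal (median SD 0.212 in the dimmest of 10 equal bins of genes and 0.110 in the brightest), each variance was also tested against the trend of variance with mean level. Above this trend 8 of 7158 genes were called (0.112%, limma adjusted p under 0.05, with 389 at an unadjusted p under 0.05): Kdm5d, Nkx2-1, Fos, Egr1, Hbb-bs, Hbb-bt and 2 genes known by clone or locus names. The same test called 0 genes among diabetic pools (395 at an unadjusted p under 0.05) and 15 among control pools. No gene was called below the trend among NTD embryos in limma, where 375 had an unadjusted p under 0.05 and the smallest adjusted p was 0.192. The number called above the trend was 1 without embryo 3 and 21 without embryo 1.

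**Figure D3:**
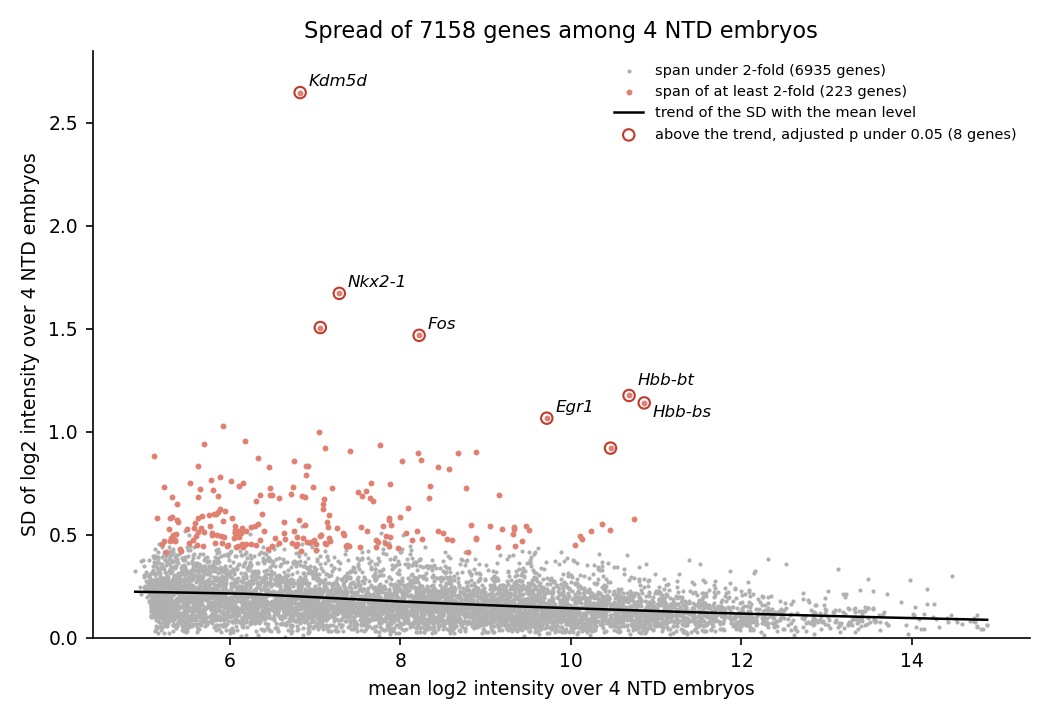
SD of log2 intensity over the 4 NTD embryos (vertical axis) against mean log2 intensity (horizontal axis) for 7158 genes, with the fitted trend as a line, the 223 genes spanning at least 2-fold in colour and the 8 genes above the trend circled. Kdm5d stands highest, with an SD of 2.65, and no gene of the brightest bin of 10 spans 2-fold.

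Genes of the forebrain were low in embryo 4. Nkx2-1, a homeobox transcription factor of the ventral forebrain, thyroid and lung, had log2 intensities of 8.25, 7.87, 8.23 and 4.79 in NTD embryos 1 to 4, against 7.50 to 8.13 in diabetic pools and 7.79 to 8.45 in control pools. It was undetected in embryo 4, at least 8.56-fold below embryo 1, while the other 3 embryos lay within the range of the pools (limma adjusted p = 0.012 for its variance above the trend). Fezf1, a zinc-finger repressor of the developing forebrain and olfactory system, had 8.29, 7.73, 8.56 and 6.45 in embryos 1 to 4, with diabetic pools at 7.92 to 8.16 and control pools at 8.18 to 8.45. It too was lowest in embryo 4, by 4.31-fold from embryo 3, but was not called (adjusted p = 0.153). Its relative Fezf2 had 5.60, 5.30, 5.74 and 4.84 and was undetected in embryo 4.

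Of the 6 measured forebrain patterning genes, 5 were lowest in embryo 4 (29.5% of all genes tested were) and 2 spanned 2-fold (3.12% of all genes). Their mean in embryo 4 lay 0.82 below the mean of the 4 embryos in log2 units. Most of this came from Nkx2-1 (4.79 in embryo 4, against a mean of 7.28) and Fezf1 (6.45, against 7.76). The median SD of these 6 genes was 0.370, with 0.160 over all genes tested. The exception, Dlx2, a homeobox gene of the ventral forebrain, had 8.19, 8.46, 8.40 and 8.35 and an SD of 0.12. Lhx2, a LIM homeobox gene of the cortex and eye, had 7.01, 7.40, 7.60 and 6.86, so embryo 1 was nearly as low as embryo 4. Chosen after their values were seen, 3 further developmental genes were lowest in embryo 4, at least 2-fold below the highest embryo: Foxe1, a forkhead gene of the thyroid bud, with 5.97, 6.13, 6.44 and 5.00, Nkx2-4, a relative of Nkx2-1, with 6.25, 6.82, 6.85 and 5.56, and Fzd5, a Wnt receptor gene of the eye field and forebrain, with 7.55, 7.54, 7.76 and 6.75. Of 11 measured skeletal muscle genes, 6 were lowest in embryo 4 (29.5% of all genes were) and 1 spanned 2-fold (3.12% of all genes did). That gene was Mylpf, encoding a myosin light chain of fast fibres, with 9.16, 9.44, 8.71 and 7.78. Others ran in another order, such as the skeletal actin gene Acta1, with 9.29, 9.52, 9.91 and 9.42. The noncoding imprinted transcripts Rian and Meg3, which lie in the same gene cluster, had 6.19, 5.84, 6.40 and 5.01 and 5.97, 5.77, 5.55 and 5.03, both undetected in embryo 4.

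**Figure D4:**
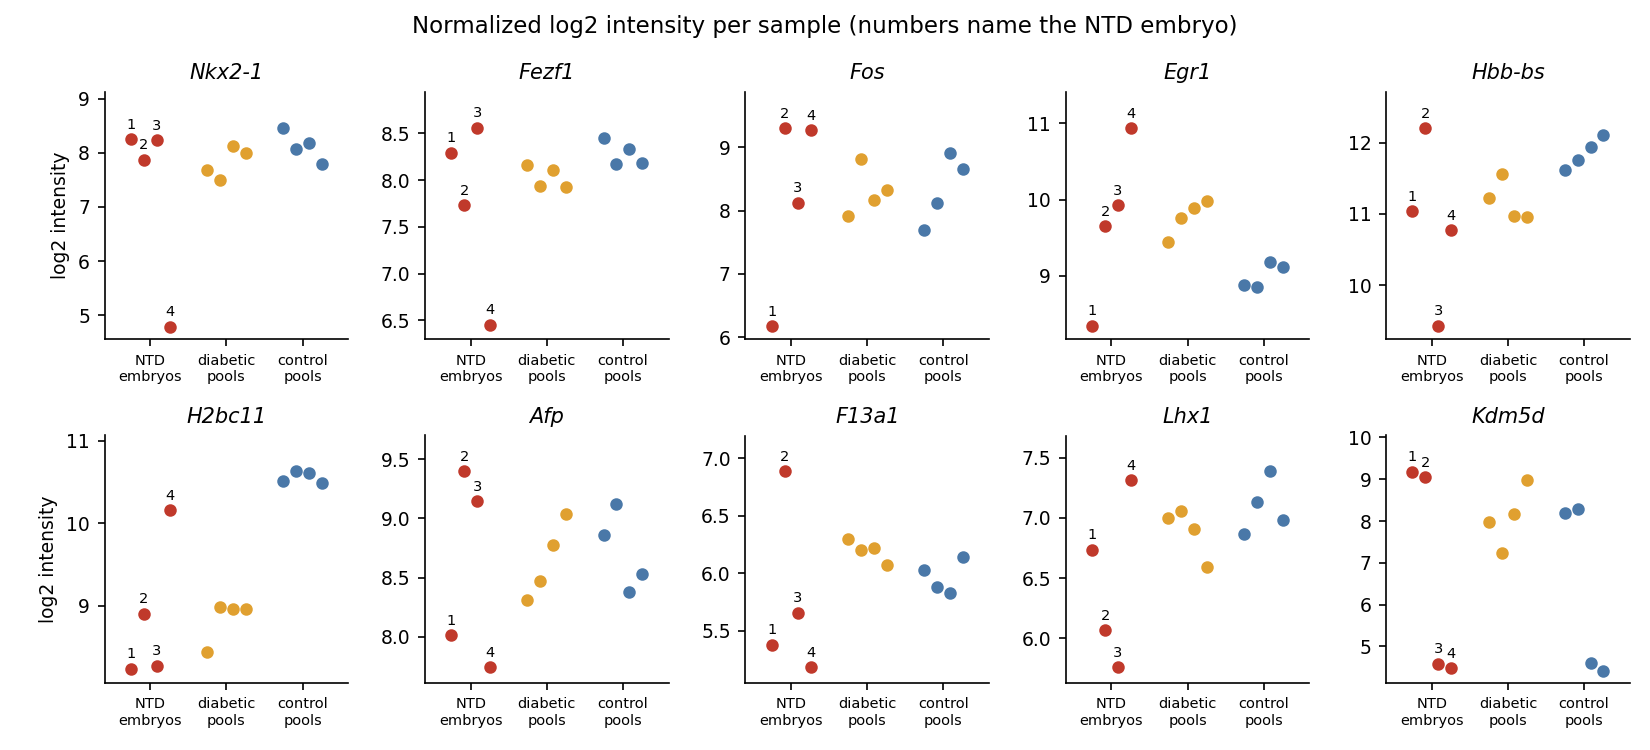
Normalized log2 intensity (vertical axis) of 10 genes in each sample, by group (horizontal axis), with NTD embryos numbered. Nkx2-1 and Fezf1 are low in embryo 4, Fos and Egr1 in embryo 1 and Hbb-bs in embryo 3, while for H2bc11 embryo 4 lies near the control pools and the other 3 embryos near the diabetic pools.

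Replication-dependent histone genes, the largest list with 44 measured members, supplied more of the widely spread genes than any other list, 16 of 223. This was 36.4% of the list, against 3.12% of all genes. Some shorter lists had larger shares, such as macrophage (44.4%) and erythroid genes (40%). By the probe used for each gene, embryo 4 was the high one in all 16. Further probes of H4c18, H4c12 and H4c6 were also highest in embryo 4, but that of H2bc21 was highest in embryo 1, with 8.42, 8.29, 7.60 and 7.80. Members of this family supply histones to newly replicated DNA in S phase, and their messages normally end in a stem-loop in place of a poly(A) tail. H2bc11 had 8.23, 8.90, 8.27 and 10.16 in NTD embryos 1 to 4, against 8.43 to 8.98 in diabetic pools and 10.48 to 10.63 in control pools. H2bc7 had 7.90, 8.76, 8.12 and 9.90, against 8.26 to 8.83 in diabetic pools and 10.09 to 10.35 in control pools. H4c18 had 5.31, 5.90, 5.96 and 7.54, against 5.55 to 5.95 in diabetic pools and 7.46 to 7.60 in control pools. In each of the 3 genes embryo 4 lay far above the other NTD embryos and every diabetic pool. The linker histone gene H1f5 had the largest SD of the family, 1.03, with 5.24, 5.69, 5.32 and 7.44 in embryos 1 to 4.

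Over the 16 genes, which were selected by their span, embryo 4 exceeded the mean of embryos 1 to 3 by a median of 1.46 in log2 units. It exceeded the mean of the diabetic pools by a median of 1.18. Over all 44 measured members, the mean in embryo 4 lay 0.49 above the mean of the 4 embryos. For all 16, every diabetic pool lay below embryo 4, and every control pool lay above embryos 1 to 3. The median difference between embryo 4 and the mean of the control pools was -0.16. None of the 16 was called above the trend. Of 44 measured family members, 31 were highest in embryo 4, as were 29.4% of all genes tested. Spread differed by histone class, with 7 of 9 H4 genes, 7 of 11 H2B genes, 1 of 2 H1 genes, 1 of 13 H2A genes and 0 of 9 H3 genes spanning 2-fold. Over all genes tested this share was 3.12%. In 13 members with a mean log2 intensity above 11, 10 of them H2A genes, the median SD was 0.098, and in the other 31 it was 0.467. That split was chosen after the values were seen, and the brightest of these genes, at 14.88, is at the top of the intensity scale. Probes for such near-identical genes can share signal, so single members are uncertain. The replacement histone genes, which as a class are not limited to S phase, had a median SD of 0.098 (0 of 10 at 2-fold). The cell cycle genes had one of 0.145 (0 of 35).

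Promoter windows of 4 of these genes are shown as the sequences that the members moving together share in part. They cover 250 bases before to 50 after the transcription start in RefSeq on GRCm38.p6, from chr13:23574158-23574457, minus strand (H2bc7), chr13:22042948-22043247, plus strand (H2bc11), chr13:21832148-21832447, minus strand (H4c18) and chr13:21750504-21750803, minus strand (H4c12). Capitals mark the letters CCAAT and TATAAA, searched on both strands, and no matches overlap.
H2bc7: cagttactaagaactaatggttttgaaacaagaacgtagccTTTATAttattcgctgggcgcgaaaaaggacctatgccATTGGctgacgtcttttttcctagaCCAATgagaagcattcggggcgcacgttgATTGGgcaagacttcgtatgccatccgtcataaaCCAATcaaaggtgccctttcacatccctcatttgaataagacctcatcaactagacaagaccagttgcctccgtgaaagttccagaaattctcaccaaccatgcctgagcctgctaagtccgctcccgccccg
H2bc11: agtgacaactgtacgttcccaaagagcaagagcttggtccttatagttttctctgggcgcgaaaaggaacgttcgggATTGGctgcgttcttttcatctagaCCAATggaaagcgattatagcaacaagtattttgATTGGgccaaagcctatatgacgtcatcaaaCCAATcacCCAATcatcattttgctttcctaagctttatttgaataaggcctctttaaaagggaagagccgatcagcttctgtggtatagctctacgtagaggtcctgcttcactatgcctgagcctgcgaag
H4c18: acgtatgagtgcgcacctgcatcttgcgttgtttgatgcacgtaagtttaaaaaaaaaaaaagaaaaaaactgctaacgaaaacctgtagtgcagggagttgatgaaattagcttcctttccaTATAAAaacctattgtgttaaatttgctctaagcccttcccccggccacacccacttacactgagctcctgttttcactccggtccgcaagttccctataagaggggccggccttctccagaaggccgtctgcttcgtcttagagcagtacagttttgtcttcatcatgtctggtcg
H4c12: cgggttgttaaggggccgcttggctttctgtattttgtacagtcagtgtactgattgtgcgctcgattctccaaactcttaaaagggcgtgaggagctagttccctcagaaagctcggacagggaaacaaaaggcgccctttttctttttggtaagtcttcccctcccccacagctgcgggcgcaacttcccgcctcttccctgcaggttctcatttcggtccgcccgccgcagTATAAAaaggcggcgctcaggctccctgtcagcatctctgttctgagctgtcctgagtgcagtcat
CCAAT was found in 6 of 6 matched promoters of the H2B genes high in embryo 4 and in 1 of 7 of such H4 genes. It was found in 38.0% of promoters of the genes tested and in 37.4% of all 32851 promoters of the table. TATAAA was found in 7 of 7 of these H4 genes and 3 of 6 of these H2B genes. Among promoters of the genes tested 7.54% held it, and 13.6% of all promoters did. All 13 measured H2A genes, which were mostly little spread, held CCAAT too, as did 7 of 7 matched H3 promoters, a class with 0 genes at 2-fold. TATAAA was found in 8 of 8 promoters matched to any measured H4 gene and in 8 of 13 for H2A.

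Most measured genes of neurons and their progenitors were highest in embryo 4, and most neuronal genes were lowest in embryo 3. Neurog3, a proneural transcription factor, had 5.21, 5.29, 5.15 and 6.88 in embryos 1 to 4, against 5.66 ± 0.16 in diabetic pools and 5.67 ± 0.20 in control pools (SD, n = 4 each). Nkx6-1, a homeobox gene of ventral progenitors, had 7.31, 6.83, 7.36 and 8.50. Dll3, a modulator of Notch signalling, had 5.45, 5.50, 5.40 and 6.88. Embryo 4 stood alone at the top for each. Of 14 measured progenitor and proneural genes, 11 were highest in embryo 4, against 29.4% of all genes, and 5 spanned 2-fold, against 3.12%. Their median SD was 0.403, and their mean in embryo 4 lay 0.50 above the mean of the 4 embryos.

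Of 20 measured neuronal genes, 14 were highest in embryo 4 (29.4% of all genes were), 14 were lowest in embryo 3 (20.7%) and 8 spanned 2-fold (3.12%), with a median SD of 0.375. Lhx1, a LIM homeobox gene of early interneurons and kidney, had 6.74, 6.07, 5.76 and 7.31, and Cntn2, an axonal adhesion molecule, had 7.20, 6.95, 6.31 and 7.94. For Lhx1, diabetic pools lay at 6.59 to 7.06 and control pools at 6.87 to 7.39, so embryos 2 and 3 were below all 8 pools. The pan-neuronal RNA-binding protein gene Elavl3 had 7.92, 7.66, 7.28 and 8.46. Doublecortin, Dcx, a microtubule protein of migrating neurons, had 7.60, 7.32, 6.76 and 7.78, lower in embryo 3 than in all pools. Gap43, an axonal growth protein, hardly varied, with an SD of 0.067. Isl1, a LIM homeobox gene of motor neurons, ran in another order and was lowest in embryo 4, with 10.68, 10.31, 10.27 and 10.24. None of these genes was called above the trend.

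Several genes of the midbrain and hindbrain were lowest in embryo 2. En2, an engrailed homeobox gene of that boundary, had 8.53, 7.30, 8.56 and 9.01, against 8.13 to 8.51 in diabetic pools and 7.57 to 7.96 in control pools. Gbx2, which positions the boundary from the hindbrain side, had 9.34, 8.74, 9.53 and 9.78. Of 9 measured genes of this list, 6 were lowest in embryo 2 (20.7% of all genes were) and 5 highest in embryo 4 (29.4%). Their mean lay 0.28 below the mean of the 4 embryos in embryo 2 and 0.25 above it in embryo 4. Lmx1a, a LIM homeobox gene that also spanned 2-fold, ran the other way and was highest in embryo 2, with 6.11, 7.17, 6.66 and 6.95, and Irx1 had 5.16, 4.78, 5.26 and 5.79. Hoxb9, which patterns the trunk, had 6.16, 6.76, 6.57 and 8.09, and 21 of 30 measured Hox genes were highest in embryo 4, against 29.4% of all genes. Among Hox genes 2 of 30 spanned 2-fold (6.67%, against 3.12% of all genes), and the median SD was 0.261, against 0.160. Fgfbp3, encoding a protein that binds fibroblast growth factors, had 7.75, 7.82, 7.86 and 9.53, so embryo 4 alone left a narrow range.

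**Figure D5:**
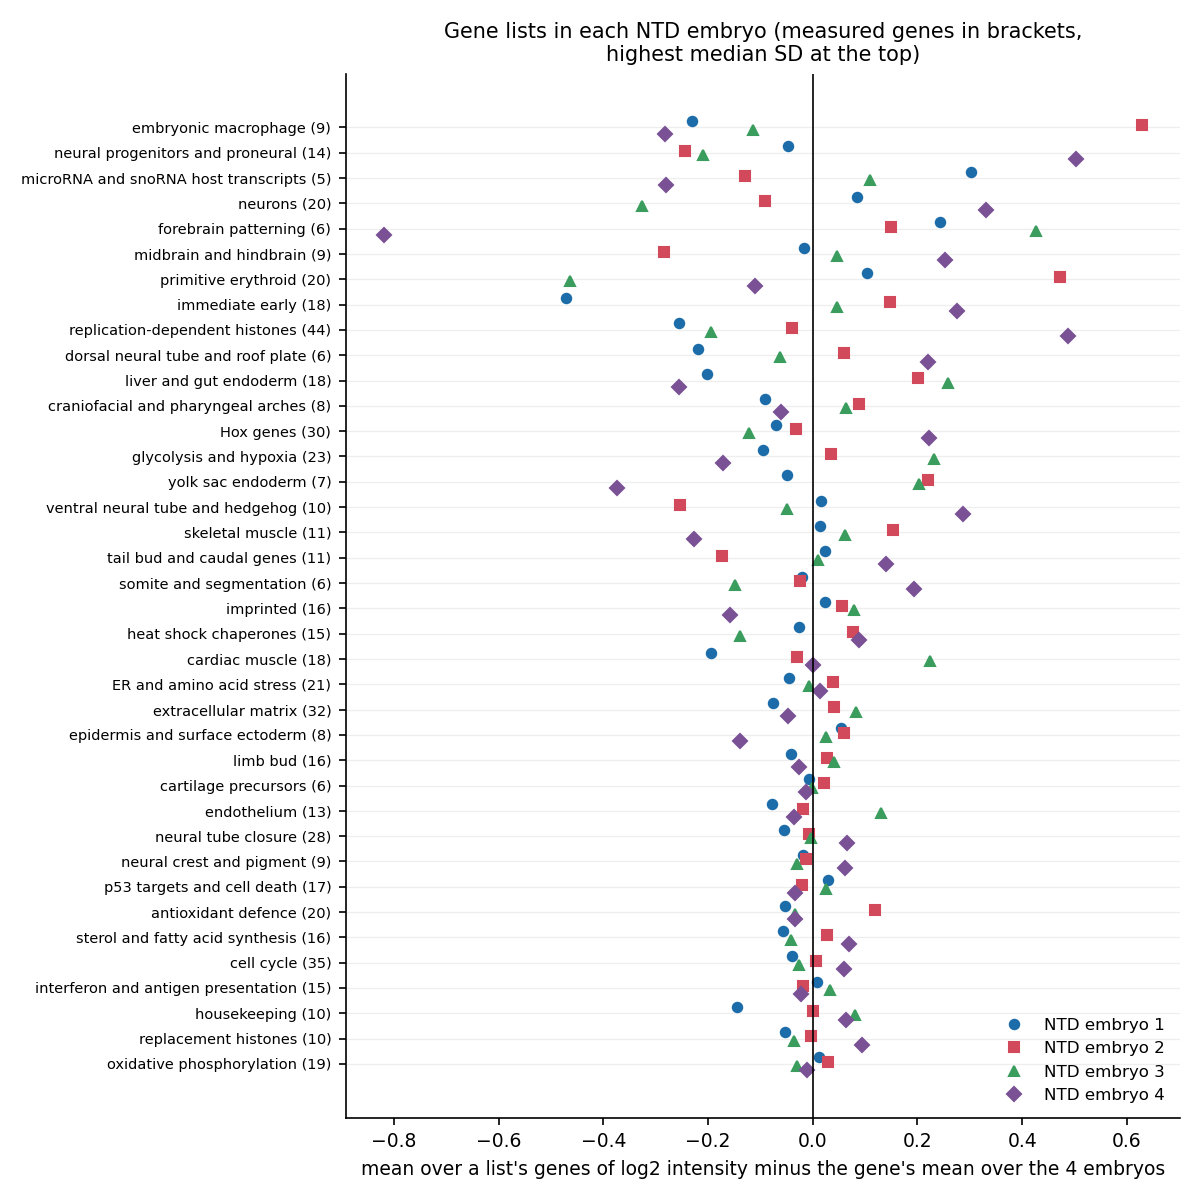
Mean deviation of each gene list in each NTD embryo (horizontal axis, log2 units, symbols for embryos 1 to 4) for lists with at least 5 measured genes (vertical axis, ordered by median SD). Embryo 4 lies lowest for forebrain patterning (-0.82) and highest for histones (0.49), embryo 2 highest for macrophage genes (0.63), embryo 3 lowest for erythroid genes (-0.46) and embryo 1 lowest for immediate early genes (-0.47).

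Immediate early genes were low in embryo 1. These genes are switched on within minutes by growth factors, stress or handling and are read as a trace of recent signalling. Fos, which encodes a subunit of the AP-1 transcription factor, had 6.17, 9.31, 8.13 and 9.27 in NTD embryos 1 to 4, against 7.92 to 8.81 in diabetic pools and 7.70 to 8.91 in control pools (8.76-fold, SD 1.47, limma adjusted p = 0.012). Egr1, a zinc-finger transcription factor, had 8.35, 9.65, 9.93 and 10.94, against 9.45 to 9.98 in diabetic pools and 8.85 to 9.19 in control pools (6.02-fold, adjusted p = 0.028). Embryo 1 lay below all 8 pools for both genes, and embryo 4 above all 8 for both. Junb, another AP-1 subunit, had 6.16, 6.99, 6.86 and 7.50, and Fosb was undetected at 4.87 in embryo 1, with 5.95 to 6.18 in the others.

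Of 18 measured immediate early genes, 13 were lowest in embryo 1 (29.1% of all genes were) and 9 highest in embryo 4 (29.4%). The list had 5 genes at 2-fold (27.8%, against 3.12% of all genes), 2 of them called above the trend, and a median SD of 0.345. Ier3, an inducible survival gene, followed another order, with 7.49, 8.03, 8.61 and 7.32. Other genes low in embryo 1 were Gcg, encoding proglucagon, with 5.83, 7.36, 6.76 and 8.20, and Dvl2, encoding a Dishevelled protein of Wnt and planar polarity signalling, with 4.95, undetected, in embryo 1 and 6.20, 5.75 and 6.54 in embryos 2 to 4. Cfl1, encoding the actin-severing protein cofilin, had 7.09, 7.88, 8.05 and 8.45 and was the 1 of 10 measured housekeeping genes at 2-fold. On that array the fewest probes were detected, 12546, and the part of detection in these values was not tested. High in embryo 1 alone were Ccnt2, a subunit of a transcription elongation kinase, with 10.04, 9.16, 9.08 and 8.34, and the noncoding Dnm3os, host of a microRNA pair, with 8.63, 7.48, 7.27 and 7.01. Further Ccnt2 probes were also highest in embryo 1, but spanned only 0.40 and 0.62 log2 units, against 1.69 for the probe used.

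Genes of red blood cells were highest in embryo 2 and lowest in embryo 3. Hbb-bs, an adult-type β-globin, had 11.04, 12.20, 9.43 and 10.77 in embryos 1 to 4, against 10.96 to 11.56 in diabetic pools and 11.62 to 12.11 in control pools (6.86-fold, SD 1.14, limma adjusted p = 0.012). Hbb-bt had 10.88, 12.05, 9.19 and 10.61 (7.28-fold, adjusted p = 0.012), and embryo 3 lay below all 8 pools for both. The 2 genes are near-identical copies whose probes can share signal, and all 8 further probes given to them also ranked embryo 2 highest and embryo 3 lowest. By contrast the embryonic globins Hbb-y and Hbb-bh1 had SDs of 0.059 and 0.11, at log2 intensities of 14.65 to 14.91 near the top of the scale. Hba-x, another embryonic globin, had 14.18, 14.24, 13.70 and 13.77, and so was highest in embryo 2 and lowest in embryo 3. Embryos 3 and 4 lay below all 8 pools for Hba-x.

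The upstream windows of the 2 β-globin genes are shown because these copies moved together, from chr7:103827879-103828178, minus strand (Hbb-bs) and chr7:103813874-103814173, minus strand (Hbb-bt), with the same capitals and the same RefSeq table.
Hbb-bs: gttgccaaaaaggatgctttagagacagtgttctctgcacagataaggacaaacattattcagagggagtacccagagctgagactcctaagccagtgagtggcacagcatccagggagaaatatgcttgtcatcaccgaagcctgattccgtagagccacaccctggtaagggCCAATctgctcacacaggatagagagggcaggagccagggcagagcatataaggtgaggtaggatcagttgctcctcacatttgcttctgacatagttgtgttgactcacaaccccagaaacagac
Hbb-bt: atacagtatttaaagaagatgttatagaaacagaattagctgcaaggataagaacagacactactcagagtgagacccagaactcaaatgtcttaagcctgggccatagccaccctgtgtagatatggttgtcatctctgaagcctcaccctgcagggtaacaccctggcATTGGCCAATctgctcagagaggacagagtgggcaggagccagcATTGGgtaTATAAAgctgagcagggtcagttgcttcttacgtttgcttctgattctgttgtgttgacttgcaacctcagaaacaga
CCAAT occurred at 1 place in the Hbb-bs window and at 3 in the Hbb-bt window, and TATAAA at 0 and 1.

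Of 20 measured erythroid genes, 16 were highest in embryo 2 (18.9% of all genes were), 16 were lowest in embryo 3 (20.7%) and 8 spanned 2-fold (3.12%), with a median SD of 0.348. Hemgn, a nuclear protein of blood progenitors, had 7.24, 7.83, 6.13 and 6.67. Alas2, the first enzyme of haem synthesis in red cells, had 10.48, 10.81, 9.62 and 10.05, and Klf1, a master transcription factor of red cells, had 8.92, 9.54, 8.46 and 8.61. Embryos 3 and 4 were below all 8 pools for each of these 3 genes.

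Macrophage genes were high in embryo 2 alone. F13a1, encoding a coagulation factor subunit made by macrophages, had 5.38, 6.89, 5.66 and 5.18, against 6.07 to 6.30 in diabetic pools and 5.83 to 6.14 in control pools. Lyz2, encoding lysozyme, had 5.62, 6.77, 5.61 and 5.67, and Mrc1, a mannose receptor, had 6.26, 7.01, 6.23 and 5.89. Of 9 measured genes of the list 8 were highest in embryo 2, against 18.9% of all genes, and 4 spanned 2-fold, against 3.12%, with a median SD of 0.424. Among the defining markers, the receptor genes Csf1r and Cx3cr1 were also highest there, at 5.20, 6.15, 5.43 and 5.33 and at 5.55, 6.37, 5.84 and 5.52, both low signals.

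Plasma protein genes of liver and yolk sac divided the embryos 2 against 2. Afp, encoding alpha-fetoprotein, had 8.01, 9.40, 9.15 and 7.75 in embryos 1 to 4, against 8.31 to 9.04 in diabetic pools and 8.37 to 9.12 in control pools. Embryos 1 and 4 lay below and embryos 2 and 3 above all 8 pools. Apoa2, an apolipoprotein gene, had 6.11, 7.18, 6.96 and 5.63, and Ambp, encoding a precursor of alpha-1-microglobulin and bikunin, had 7.24, 8.71, 8.81 and 7.31. All 9 genes at 2-fold that were high in embryos 2 and 3 were Afp, Apom, Ambp, Apoa2, Itih2, Fga, Fgg, Apoa1 and Ddit4, of which only Ddit4, an inhibitor of mTOR signalling, does not encode a plasma protein. Of 18 measured liver and gut genes, 8 spanned 2-fold (3.12% of all genes did) and 10 were lowest in embryo 4 (29.5%), with a median SD of 0.297. Among yolk sac markers, Apob had 5.30, 5.21, 5.07 and 4.64, another order than Afp, and was undetected in embryos 3 and 4. Amn and Cubn were undetected on all 4 NTD arrays, as was the liver marker Alb, while all 7 measured yolk sac genes were lowest in embryo 4. The part of attached yolk sac in these values was not tested.

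Many glycolysis and hypoxia genes, and the stress gene Chac1, were highest in embryo 3. Chac1, a glutathione-degrading enzyme induced by amino acid and endoplasmic reticulum stress, had 6.11, 5.75, 7.65 and 6.31, against 5.88 to 6.03 in diabetic pools and 5.95 to 6.08 in control pools. The glycolytic enzyme genes Eno2 and Aldoc had 7.07, 6.88, 7.96 and 6.47, and 6.68, 6.88, 7.69 and 6.81. Of 23 measured genes of glycolysis and the hypoxia response, 13 were highest in embryo 3, against 22.8% of all genes, and 5 spanned 2-fold, against 3.12%, with a median SD of 0.255. The list of stress genes that holds Chac1 had 2 of 21 genes at 2-fold and 3 of 21 highest in embryo 3 (14.3%, against 22.8% of all genes). Cardiac muscle genes were highest in embryo 3 in 16 of 18 cases at small amplitude, such as Nppa, a natriuretic hormone precursor of the heart chambers, with 11.04, 11.40, 11.91 and 11.21. Of the 18 genes 1, Myh7, spanned 2-fold, while its further probes spanned 0.59 and 0.72 log2 units and were highest in embryo 4.

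Genes whose loss causes neural tube defects in mice were close to typical in spread. Of 28 measured neural tube closure genes 2 spanned 2-fold (7.14%, against 3.12% of all genes), Dvl2 and Celsr1, a planar polarity cadherin gene with 5.37, 5.52, 5.77 and 6.49, and the median SD was 0.168. The remaining 26 included Grhl3, a transcription factor of the surface ectoderm, with 6.25, 6.29, 6.16 and 5.89, and Lrp2, an endocytic receptor, with 8.43, 8.49, 8.98 and 8.46.

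Kdm5d, the Y-linked demethylase gene, had the largest SD of all, 2.65, with 9.18, 9.05, 4.59 and 4.48 in embryos 1 to 4 (limma adjusted p = 0.0026). It was detected in embryos 1 and 2 and undetected in embryos 3 and 4, a difference of at least 16.5-fold. Eif2s3y, also Y-linked, had 6.06, 5.66, 4.38 and 4.34 in the same order and was likewise undetected in embryos 3 and 4. With undetected values raised to the lowest detected signal, its span of 3.31-fold became 1.90-fold. Diabetic pools lay between 7.23 and 8.97 for Kdm5d, and control pools at 8.19, 8.28, 4.60 and 4.42. For Eif2s3y, diabetic pools lay between 4.54 and 5.82, and control pools at 4.90, 4.73, 4.42 and 4.56. The 10 genes that separated embryos 1 and 2 from embryos 3 and 4 by 2-fold included both, and Gjb6, a connexin, with 6.85, 6.91, 5.81 and 5.67. Sex and other differences between these pairs of embryos cannot be told apart.

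At the other end, oxidative phosphorylation genes, which supply the cell's main respiratory energy, had the lowest median SD of the 43 measured lists. Among genes detected on all 4 arrays with a mean above the median, the 10 with the smallest SD were Msl1, Cdk8, Lars, Bag1, Tril, Nop58, Cdc42, Gapdh, Fam8a1 and Ndufb9. Msl1, a subunit of a histone acetyltransferase complex, had 9.44, 9.44, 9.45 and 9.46. Gapdh, a glycolytic enzyme gene, had 13.95, 13.94, 13.98 and 13.97 (SD 0.018), and Ndufb9, a subunit of respiratory complex I, had 9.64, 9.61, 9.65 and 9.62. Of 19 measured oxidative phosphorylation genes none spanned 2-fold, and their median SD was 0.076 in NTD embryos, 0.123 in diabetic pools and 0.090 in control pools. The next lowest medians were those of replacement histone (0.098), housekeeping (0.132), interferon and antigen presentation (0.133), cell cycle (0.145) and sterol synthesis genes (0.147). Relative to the SD of the trend at their level, the median was 0.67 for oxidative phosphorylation genes and 0.94 over all genes, but 1.07 for housekeeping genes and 1.03 for cell cycle genes. With 3.12% of all genes at 2-fold, a count of 0 in lists of this size sets none of them apart.

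A direct test of the spread of each gene, on absolute deviations from the group mean, called 8 of 7158 genes as more spread in NTD embryos than in diabetic pools (0.112%) and 0 as less spread (585 and 186 at an unadjusted p under 0.05 in limma). Against control pools it called 40 as more (0.559%) and 3 as less spread (0.0419%), and 7 genes were called as more spread in both comparisons, which share the NTD embryos. The excess deviation of Itih2, an inter-alpha-trypsin inhibitor gene with 6.24, 7.60, 7.56 and 6.18 in NTD embryos, was 0.46 ± 0.04 over diabetic pools (SE, n = 4 per group, limma adjusted p = 0.002). That of Bcl11b, a zinc-finger transcription factor with 8.18, 8.25, 7.38 and 7.29, was 0.48 ± 0.04 (adjusted p = 0.002). All 8 and all 40 genes called as more spread divided the NTD embryos 2 against 2, and on simulated data without differences the unadjusted p-values of this test ran too small. It called 0 genes in either comparison after any 1 of the 4 NTD embryos was left out. Less spread than in control pools were Dhx9, an RNA helicase gene (-0.33 ± 0.05, adjusted p = 0.025), Cald1, an actin-binding protein gene (-0.29 ± 0.05, adjusted p = 0.039), and Prex2, a Rac exchange factor gene (-0.21 ± 0.04, adjusted p = 0.043). All 3 of these genes divided the control pools 2 against 2. With the mean of a gene's probes in place of 1 probe, no gene was called as less spread, against 60 as more. The differences of Dhx9 and Prex2 then turned to 0.21 and 0.0029. The genes above the trend, apart from Kdm5d, were not among the 8.

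The spread of the 223 genes was large against error within arrays. The ratio of variance between embryos to the sampling variance over beads had a median of 52.3 in these genes, with 4.27 the lowest, and of 9.0 over all genes. For the 10 least variable genes it was 4.83. Intensities before background correction and normalization were used for this ratio, unlike for the SDs. Its variance between embryos thus includes intensity differences between whole arrays that normalization removes. So 4.83 does not measure the normalized spread of those 10 genes against bead error. Both sets were chosen by their spread on these same arrays, so their ratios differ from that of all genes in part by construction. The sampling variance over beads leaves out error between arrays. For 45 of the 223 genes 60 further kept probes were present. Of these, 33 had the same highest and the same lowest embryo as the probe used, 51 shared at least 1 of the 2, and 31 also spanned 2-fold.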

How the data were processed

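Whole-embryo RNA from 4 NTD embryos, 4 diabetic pools and 4 control pools was measured on 1 Illumina BeadChip array each. Average bead intensities per probe were deposited without background correction or scaling, per the file headers, and GenomeStudio is named in the submitters' processing notes with no version. Each intensity was deposited with a detection p-value, the share of negative control probes at or above the probe. The deposited bead standard errors are on the same signal scale, and the deposited bead numbers are counts of beads per probe. The authors' processed value table also holds intensities on a linear scale, with how they were scaled not given in the sources used here, and was tried in place of them, with a floor of 1.

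Values were background-corrected with normexp, quantile-normalized and put on the log2 scale for all 12 arrays with limma's neqc (offset 16, limma 3.58.1, R 4.3.3). The platform annotation paired 23340 of the 32766 probes with a single gene; 13 carried several symbols and 9413 were unlisted. The probe with the highest mean over NTD embryos stood for its gene. Variance above the trend was tested with an intercept-only fit, a robust prior from limma (7.32 prior degrees of freedom), an F test and Benjamini-Hochberg adjustment over 7158 genes. Differential variability was tested in limma on absolute deviations from group means, and distances were compared by two-sided exact permutation. Both scripts were tested on simulated data. Undetected values were raised to the lowest detected signal for bounds written as "at least". Figures used matplotlib 3.10.9.

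Genes were named by rule: the 20 largest SDs, the 10 smallest SDs among well-detected genes, the 5 widest of each pattern with at least 10 genes, up to 4 per list, the leading genes of each test and all genes above the trend. Genes known only by clone or locus names were counted but not named, and took no place in these numbers. Named outside it, with their values known, were Alas2, Aldoc, B3gat2, Csf1r, Cx3cr1, Dcx, Dlx2, Fgg, Foxe1, Fzd5, Gap43, Gpkow, Grhl3, H2bc21, H4c6, Hba-x, Hbb-bh1, Hbb-y, Isl1, Junb, Klf1, Lrp2 and Nkx2-4. The members and the 44 gene lists were chosen with earlier results of these data known. Ribosomal protein genes had no measured member. Alternatives changed the arrays normalized together, the scaling, the background correction, the source of values, the detection filter, the probe rule, the prior, the deviation measure, the replicate block and the samples.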

Additional observations from a re-analysis of the deposited data

Results flagged for a closer look

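For 206 named genes, 43 gene lists and the 3 groups of distances, the gap between the outermost NTD embryo (or sample) and its nearest neighbour was divided by the range of the 4 and compared with Dixon's 95% critical value, 0.83. Chance alone exceeds this in about 1 in 20 groups, and 11 of the 206 genes, 1 list and 0 groups of distances did. In 6 of the 11 genes embryo 4 stood apart. It was low for Nkx2-1 (ratio 0.890) and high for Fgfbp3 (0.939), Dll3 (0.937), Neurog3 (0.922), Slc10a4l (0.830) and Bag1 (0.842), the last within a total spread among the smallest measured. Embryo 2 stood apart, high, for Lyz2 (0.949), and embryo 1, low, for Fosb (0.831). Flt1, a receptor for vascular endothelial growth factor, was high in embryo 3 (0.892). Cdc42 (0.832) and Rtl8c (0.889) were high in embryo 1, again within very small spreads. The mean of the antioxidant defence genes was high in embryo 2 (0.886), where it lay 0.12 above the mean of the 4 embryos in log2 units.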

How the results depend on the processing

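The 8 genes above the variance trend became 51 with median scaling, 22 with no filter on detection, 5 with a prior that was not robust, 3 with detection on all 4 NTD arrays, 1 with the mean of a gene's probes and 0 without a trend, and 1 to 21 with 1 embryo left out. Leaving aside the changes of prior and trend, Kdm5d was called in all 11 alternatives that kept it, Hbb-bs, Hbb-bt, Fos and Egr1 in 10 of 13 and Nkx2-1 in 9 of 12. The 223 genes at 2-fold became 98 with no background correction and 683 in the authors' value table, and 79 to 178 with 1 embryo left out. The 85 with embryo 4 apart became 43 and 203 in those 2 settings. The median SD of 0.160 became 0.130 and 0.182 there, 0.115 with no filter, and 0.141 to 0.163 with 1 embryo left out. Differential variability against diabetic pools (8 calls) gave 4 with median scaling, 20 with no filter, 13 with squared deviations, 0 with trend and robust estimation and 0 to 14 with 1 sample left out. Against control pools (43 calls) it gave 21 with squared deviations, 20 with deviations from the median, 1 with trend and robust estimation and 0 to 18 with 1 sample left out. With the mean of a gene's probes, the spread of Dhx9 turned to 0.21 (adjusted p = 0.176 in limma) and that of Prex2 to 0.0029 (adjusted p = 0.977).

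The distance between NTD embryos and diabetic pools, 0.0682, became 0.0749 with median scaling, 0.0986 in the authors' table and 0.0492 with no filter, each at the smallest exact permutation p of 0.0286, and 0.0417 to 0.103 with 1 sample left out (p = 0.0286 to 0.257). Against control pools it was 0.0861 to 0.138 with 1 sample left out (exact permutation p = 0.0286 to 0.0571); leaving out a sample raises distances in its own group by construction. With the replicate block, differential variability gave 0 calls against diabetic pools and 12 against control pools, and the distances of 0.0682 and 0.103 had exact permutation p-values of 0.25 and 0.125, the second the smallest possible. Same-numbered samples correlated at -0.20 to 0.27 in their deviations for diabetic pools and at 0.01 to 0.31 for control pools. The best-matching control pool had the same number for embryos 1, 3 and 4, and the best-matching diabetic pool only for embryo 2. Whether the shared numbers mark a pairing was not tested. The cause of these changes was not tested.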
